A study of Mus musculus with 13 samples.

Results

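The genes described here encode the basement membrane of the seminiferous tubule and the matrix around it, together with the contractile genes of the muscle-like cells that share that layer. They are 39 genes named by symbol and grouped by role as 6 type IV collagen chains, 10 laminin chains, 6 nidogens and proteoglycans, 6 interstitial matrix genes, 4 contractile genes, 3 protease inhibitors and 4 proteases. All 39 were among the 27111 named genes of the count table, and 31 had enough counts to be tested. Sertoli cells, the somatic cells that nurse germ cells inside the tubule, were enriched by cell sorting from testes of adult wild-type C57Bl/6J (Bl6 wt) males and their total RNA was sequenced, 1 library per mouse. The MSUS males (n = 7) had been parted daily from the dam as pups, 3 h each day without a fixed schedule over postnatal days 1 to 14, and the dams were meanwhile held in a restraint tube (20 min) or made to swim in water at 18 °C (5 min). MSUS is the name of this model, which joins maternal separation with stress of the mother, both unpredictable. The Control males (n = 6) were left undisturbed, and both groups were sorted in the same way. The question was whether stress in early life leaves a lasting difference in these cells.

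A basement membrane is a thin sheet built of a laminin network and a type IV collagen network, which nidogens and the proteoglycan perlecan tie together. In the testis it is made jointly by Sertoli cells on its inner face and by peritubular myoid cells on its outer face. Myoid cells are flat, smooth-muscle-like cells that contract to move sperm along the tubule and that also lay down fibrillar collagen and fibronectin. Germ cells cross the tubule while Sertoli cells and their junctions are remodelled by proteases and by the inhibitors that hold them in check.

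The digestion used to free Sertoli cells removed a fraction holding peritubular cells before the last enzyme step, and the sort kept large diploid cells with high mitochondrial staining, with no marker of myoid cells in the gate. The 12 Sertoli cell markers averaged 8.59 ± 0.09 log2 CPM in Control libraries and 8.56 ± 0.10 in MSUS libraries (mean ± SD), from Clu at 13.07 down to Amh at 3.08 (control means). CPM is the count scaled to a common library total. In these libraries 9 smooth muscle markers outside the 4 contractile genes averaged 2.72 ± 0.39 and 2.90 ± 0.55 log2 CPM, and the 10 endothelial markers 0.65 ± 0.31 and 0.85 ± 0.16, in Control and MSUS respectively. These averages join unlike genes. Control means ran from Myl9 at 7.30 to Itga8 at -1.54 for smooth muscle and from Pecam1 at 4.74 to Tie1 at -2.04 for endothelial markers. Interstitial stroma markers averaged -0.03 and 0.19, macrophage markers -0.39 and -0.31, and Leydig cell markers 2.30 and 2.39. Spermatocyte markers averaged 4.56 and 4.31, and elongated spermatid markers 7.90 and 8.09. Control means ran from Gsn at 6.33 to Dpt at -2.53 for stroma and from Mrc1 at 8.87 to C1qa at -2.42 for macrophage markers. No marker of any list was at 0 counts in all libraries. Total counts ran from 13087203 to 18649945 in Control and from 12701776 to 15693938 in MSUS libraries. No pair of the 13 libraries agreed within sampling noise.

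The tested members ran from the 0.652 percentile of expression among all tested genes (Col15a1) to the 99.5 percentile (Timp2). To compare genes with each other, levels were divided by transcript length (CPM per kilobase of the longest coding transcript). In Control libraries the order began with Timp2 at 225 ± 12.4 CPM per kilobase, followed by Mmp14 at 82.0 ± 2.30, Col18a1 at 57.4 ± 6.01, Nid1 at 48.8 ± 4.17, Timp3 at 41.8 ± 3.78 and Plat at 41.4 ± 4.75 (mean ± SD, n = 6). Lama1 at 19.3 ± 2.42 and Lamb2 at 16.8 ± 1.61 came next, then Col4a4, Col4a3 and Lamc1. Contractile Acta2 stood at 5.64 ± 3.26. Of the 38 neighbouring pairs in this order, 33 overlapped in their Control ranges. The 5 that did not were Timp2 over Mmp14, Mmp14 over Col18a1, Plat over Lama1, Lamb2 over Col4a4, and Col4a3 over Lamc1. The order also depends on the length used. Divided by all exon bases of the gene instead, Col18a1 (45.8) stood above Mmp14 (44.5) and Lama1 (19.0) above Plat (16.8).

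**Figure D1:**
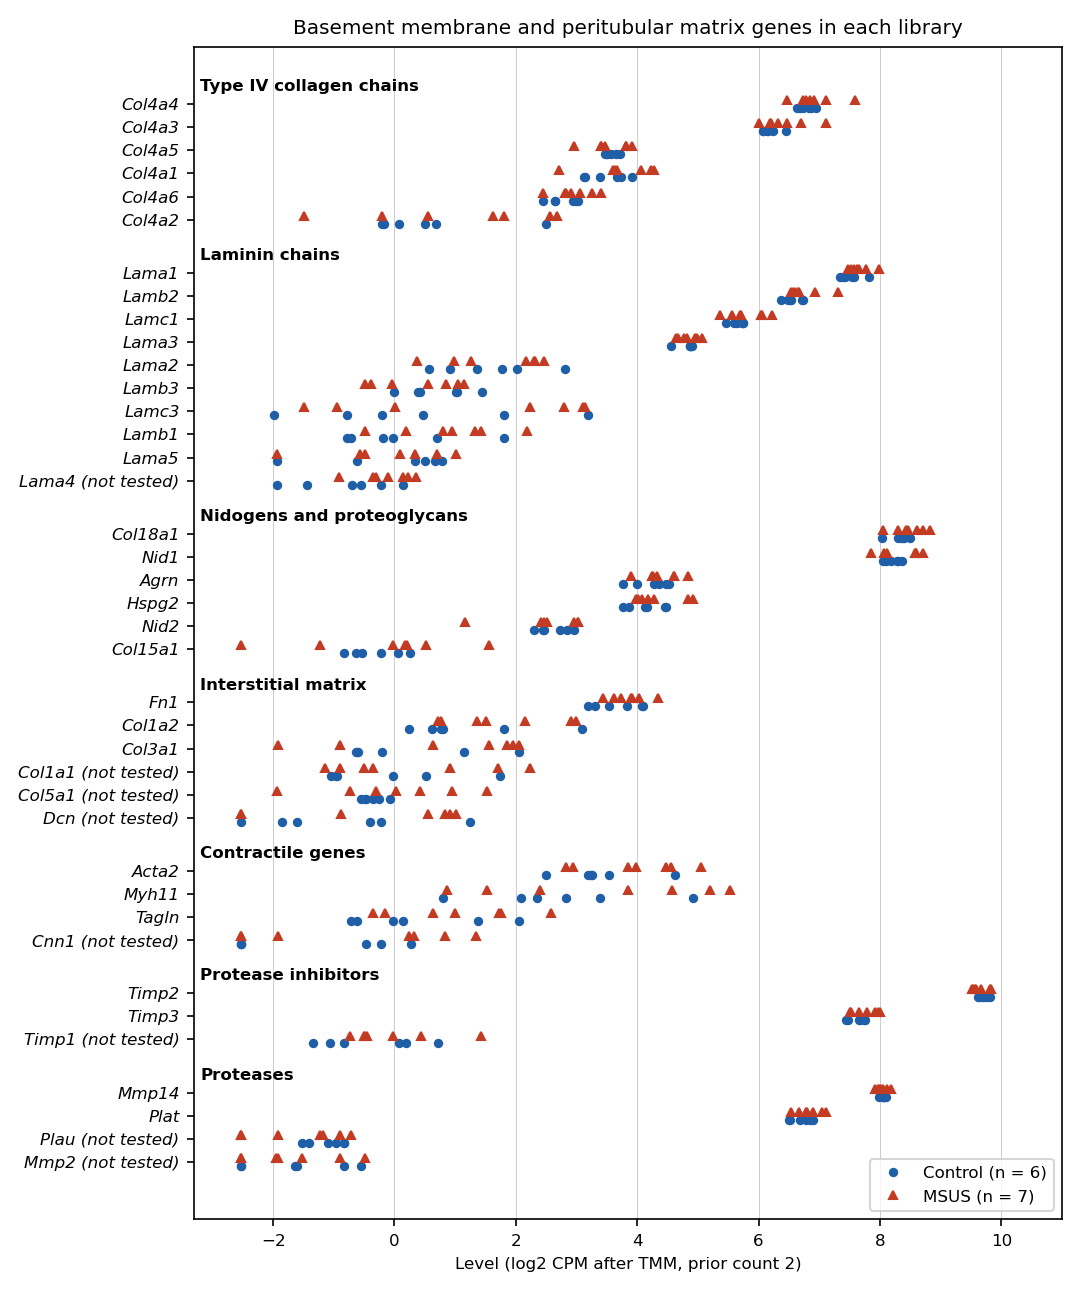
Level of each of the 39 genes (log2 CPM, horizontal axis) in each of the 6 Control libraries (blue circles) and 7 MSUS libraries (red triangles), grouped by role and ordered by control mean. The circles and triangles overlap for every gene, and the points of Timp2 and Mmp14 lie close together while those of Lamc3, Myh11 and Col4a2 are spread widely.

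Of the type IV collagens, Col4a3 and Col4a4, which encode chains of the specialised α3α4α5 network, were the abundant ones. Col4a4 stood at 10.9 ± 0.877 and Col4a3 at 8.54 ± 0.900 CPM per kilobase in Control libraries, against 1.79 ± 0.125 for Col4a5, their partner in the network found in the kidney glomerulus and the tubule wall. Col4a6, the partner of Col4a5 in smooth muscle basement membranes, was at 1.02 ± 0.163. The chains of the widespread α1α1α2 network were at 1.71 ± 0.392 for Col4a1 and 0.269 ± 0.286 for Col4a2, a ratio of control means of 6.36.

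The laminin chains were led by Lama1, Lamb2 and Lamc1. Lama1, the α1 chain, ranged from 7.34 to 7.82 log2 CPM in Control libraries (median 7.48) and from 7.47 to 7.98 in MSUS libraries (median 7.62). Lamb2, the β2 chain, ranged from 6.37 to 6.73 (median 6.53) and from 6.54 to 7.31 (median 6.65). Lamc1, the γ1 chain shared by most laminins, ranged from 5.46 to 5.75 (median 5.69) and from 5.36 to 6.22 (median 5.71). All 3 genes overlapped between the groups. Lama3, the α3 chain known from epithelial laminin-332, came next at 2.68 ± 0.229 CPM per kilobase in Control libraries. Lama2, the muscle α2 chain, and Lamb1, Lamb3, Lamc3 and Lama5 stood lower, from 0.415 (Lamc3) to 0.0861 CPM per kilobase (Lama5). Per kilobase, control means gave 224 times more Lama1 than Lama5, 81.8 times more Lamb2 than Lamb1 and 15.9 times more Lamc1 than Lamc3. Lama4, the α4 chain of vessel walls, had 1 to 12 counts per library and was not tested.

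The linkers and heparan sulfate carriers were dominated by Nid1 and Col18a1. Nid1, which bridges the laminin and collagen networks, ranged from 8.05 to 8.37 log2 CPM in Control libraries (median 8.22) and from 7.86 to 8.71 in MSUS libraries (median 8.58). Col18a1, whose cleaved end is endostatin, ranged from 8.03 to 8.49 (median 8.36) and from 8.04 to 8.82 (median 8.46). Both genes overlapped between groups, and the MSUS libraries reached further at the top. Nid2, the second nidogen, was 39.1 times lower than Nid1 per kilobase. Agrin (Agrn, 2.62 ± 0.509 CPM per kilobase) and perlecan (Hspg2, 1.25 ± 0.256) lay between, and Col15a1 had 0 to 30 counts per library.

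Interstitial matrix was sparse. Fibronectin (Fn1) stood at 1.56 ± 0.418 CPM per kilobase in Control libraries, and the fibrillar collagen genes Col1a2 and Col3a1 had medians of 25 and 16 counts per library. Col1a1 (3 to 54 counts), Col5a1 (1 to 30) and the small proteoglycan decorin, Dcn (0 to 30), were below the filter. Of the contractile genes, smooth muscle actin Acta2 had 77 to 364 counts, smooth muscle myosin Myh11 19 to 506 and Tagln, an actin-binding protein, 5 to 64, while calponin Cnn1 had 0 to 26 and was not tested.

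Timp2, Timp3, Mmp14 and Plat were the abundant enzymes and inhibitors. Timp2, a secreted inhibitor of matrix metalloproteases, ranged from 9.61 to 9.82 log2 CPM in Control libraries (median 9.69) and from 9.51 to 9.82 in MSUS libraries (median 9.59). Mmp14, a membrane-bound protease that activates Mmp2 together with Timp2, ranged from 7.98 to 8.10 (median 8.06) and from 7.91 to 8.18 (median 8.02). The 13 libraries spanned a 1.24-fold range for Timp2 and a 1.20-fold range for Mmp14. Timp3, which stays bound to the matrix, and Plat, tissue plasminogen activator, spanned 1.48-fold and 1.52-fold. The target of Mmp14, Mmp2, had 0 to 6 counts per library, urokinase Plau had 0 to 5 and Timp1 3 to 29, and none of these 3 was tested.

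The members differed widely in how much they varied between libraries, where mouse, sort and library preparation cannot be told apart. Residual SD after removing the group difference was ranked among the 14421 genes tested, with the voom weights, which scale it to the spread usual at a gene's level. The median percentile of the 31 members was 90.3, and 25 of them lay above the 80th percentile. On this weighted scale most of these genes thus varied more between libraries than most genes did. Myh11 (99.9), Lamc3 (99.3), Acta2 (99.0), Col4a2 (97.8) and Col3a1 (97.7) stood highest, and abundant Nid1 (97.0), Col4a3 (96.5) and Col4a4 (96.3) were also high for genes with 660 counts or more per library. The 6 lowest were Mmp14 (6.48), Lama3 (25.5), Col4a6 (33.9), Col4a5 (45.3), Lamb3 (51.9) and Timp2 (53.7). The fold range over the 13 libraries was 36.1 for Lamc3, 26.5 for Myh11 and 18.1 for Col4a2.

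Summed within a role, contractile CPM ranged 11.6-fold over the 13 libraries, interstitial matrix 3.24-fold and type IV collagen 2.17-fold. The sums of nidogens and proteoglycans (1.66-fold), laminins (1.59-fold), inhibitors (1.26-fold) and proteases (1.22-fold) were steadier. MSUS 26 and MSUS 5 each held the highest level of 10 of the 31 tested members, against 15.0% and 6.13% of all genes tested. The within-group SD was larger in MSUS for 26 of the 31 members (83.9%) and for 64.5% of all genes tested, a description with no test.

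**Figure D2:**
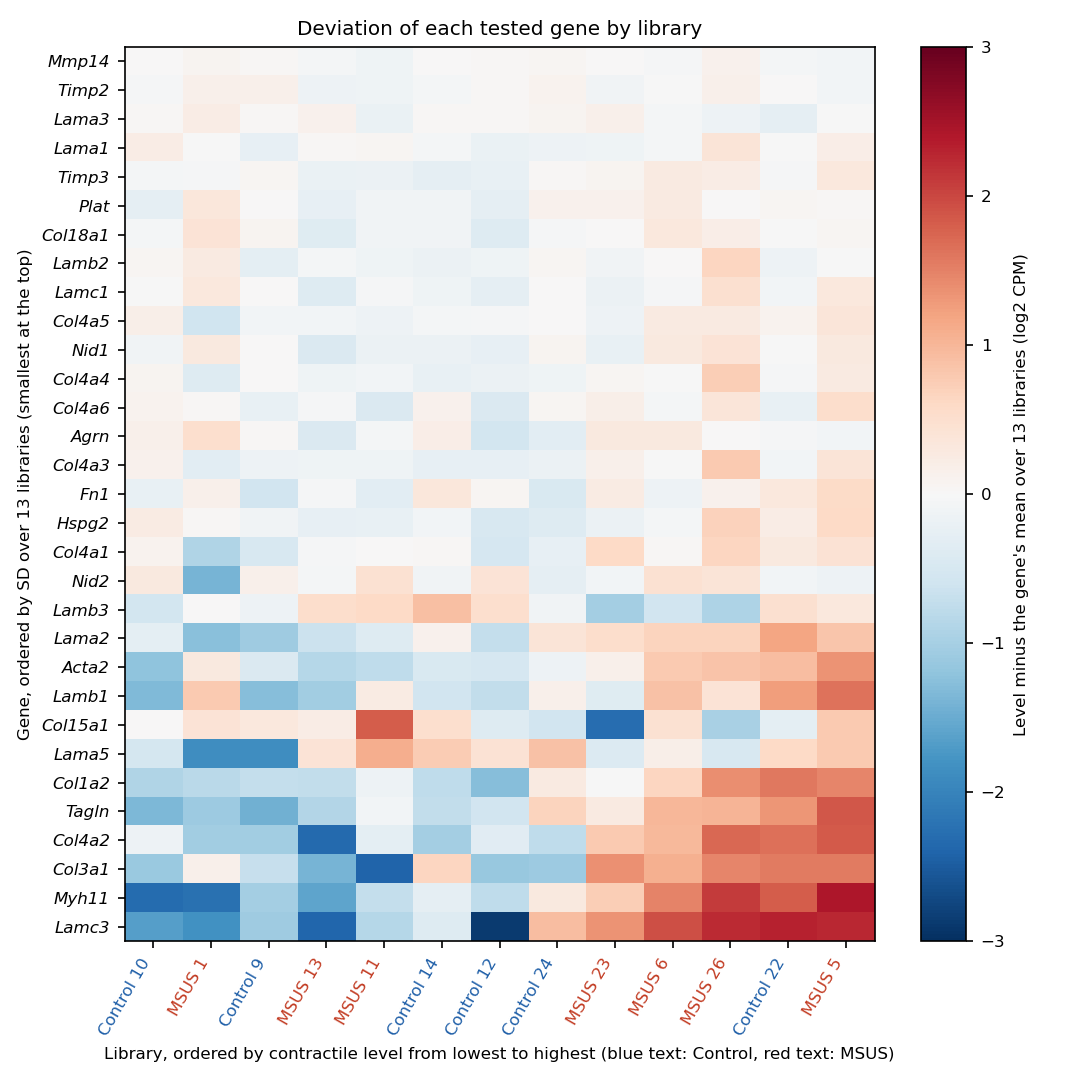
Level of each tested gene minus its own mean over 13 libraries (log2 CPM; red above, blue below), with libraries in columns ordered by contractile level and genes in rows ordered by SD. The lowest rows, with Lamc3, Myh11, Col3a1, Col4a2, Tagln and Col1a2, pass from blue to red along the columns, and the top rows, with Mmp14 and Timp2, stay pale.

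A contractile level was taken for each library as the mean log2 CPM of Acta2, Myh11, Cnn1 and Tagln. It ran from 0.03 (Control 10) to 2.97 (Control 22) in Control libraries, with a mean of 1.29 ± 1.06, and from 0.49 (MSUS 1) to 3.62 (MSUS 5) in MSUS libraries, with a mean of 1.95 ± 1.29, so the groups overlapped. In bulk RNA, more myoid cells and more RNA per myoid cell cannot be told apart. Each gene was fitted with the group and this level together, and the slope is the change in log2 CPM per unit of contractile level.

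Of the 28 tested members outside the contractile genes, 4 rose with the contractile level at an adjusted p under 0.05 (limma voom, Benjamini-Hochberg over all genes), where 0.104% of all genes tested outside the contractile genes were called, these 4 included. They were Col1a2, a fibrillar collagen chain, with a slope of 0.85 ± 0.12 (SE, adjusted p = 0.00403), Lamc3, the γ3 laminin chain, with 1.55 ± 0.24 (adjusted p = 0.00821), Col4a2 with 1.07 ± 0.17 (adjusted p = 0.0103) and Lama2, the muscle laminin chain, with 0.63 ± 0.11 (adjusted p = 0.0192). At an unadjusted p under 0.05, 12 of the 28 had a positive slope and 0 a negative one, against 3.02% positive among all genes tested outside the contractile genes, the members included. The other 8 were Col3a1 (slope 1.02), Lamb1 (0.68), Col4a1 (0.22), Col4a5 (0.14), Col4a3 (0.13), Col4a4 (0.12), Nid1 (0.11) and Timp3 (0.10), with adjusted p from 0.193 to 0.900.

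The values per library of these low-count genes are those that gave the calls, so they describe the pattern and add no support. Lamc3 ranged from -1.99 (Control 12) to 3.18 log2 CPM (Control 22) in Control libraries, median 0.14, and from -1.50 (MSUS 13) to 3.13 (MSUS 5) in MSUS libraries, median 2.23. Col1a2 ranged from 0.25 (Control 12) to 3.10 (Control 22), median 0.78, and from 0.72 (MSUS 1) to 2.99 (MSUS 5), median 1.52. In both genes the highest library of each group was the one with the highest contractile level of that group. Col4a2 ranged from -0.20 (Control 9) to 2.49 (Control 22), median 0.29, and from -1.50 (MSUS 13) to 2.68 (MSUS 5), median 1.62. Lama2 ranged from 0.56 (Control 9) to 2.81 (Control 22), median 1.56, and from 0.38 (MSUS 1) to 2.46 (MSUS 5), median 2.16. The low ends matched less well. Control 10, with the lowest contractile level (0.03), was the lowest Control library for none of these genes. MSUS 1, the lowest of its group (0.49), was lowest there for Col1a2 and Lama2.

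Several abundant genes had slopes close to 0, unlike Nid1, Timp3, Col4a3 and Col4a4 above. The slope was 0.01 ± 0.03 for Timp2, -0.00135 ± 0.0244 for Mmp14, 0.02 ± 0.04 for Lama1, 0.03 ± 0.05 for Lamb2 and 0.04 ± 0.05 for Col18a1 (SE). The upper 95% bound of these slopes was 0.14 for Col18a1 and 0.13 for Lamb2, below the lower bound of Lama2 at 0.40. Slopes on a log scale compare relative changes only. Control means were 321 CPM for Col18a1 and 3.23 CPM for Lama2, so the same added RNA gives Col18a1 a smaller slope. Among genes outside the 39, the smallest p for a positive slope belonged to Tpm2 (slope 1.18), Fgl2 (1.87), Cald1 (1.12), Ahnak (0.95) and Flna (0.97). Tpm2 and Cald1 are on the list of 9 smooth muscle markers, of which 8 were tested. The other tested markers of that list, with abundant Myl9 and Mylk among them, did not pass the adjusted threshold. The smallest p for a negative slope belonged to Gm8765 (-1.24), Zfp605 (-0.28), H1f7 (-0.25), Oxct2b (-0.32) and Gm5893 (-0.36), and only Gm8765 of these passed the adjusted threshold.

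The calls rested on few libraries. Without Control 22 0 of 29 members were called, with adjusted p of 0.101 for Col1a2, 0.239 for Lamc3, 0.268 for Col4a2 and 0.385 for Lama2, while the slopes were 0.71, 1.36, 0.96 and 0.56. With the elongated spermatid marker level added as a covariate 0 of 28 were called (adjusted p 0.0548 for Lamc3 to 0.380 for Lama2), and without MSUS 5 and Control 22, the libraries farthest from the median level, 0 of 29 were called, the 4 slopes then lying between 0.62 and 1.72. Within Control libraries alone the slope was 1.02 ± 0.19 for Col1a2 and 0.67 ± 0.18 for Lama2, and within MSUS libraries alone 0.73 ± 0.13 and 0.60 ± 0.12, with 0 members called in either. Col4a2 and Lamc3 did not pass the filter on low counts within a single group, so they have no slope there. Of 21 members tested in each group alone, 2 had a positive slope in Control and 8 in MSUS libraries. The threshold was an unadjusted p under 0.05 (limma voom), without a share of all genes to compare. The median member slope was -0.00437 in Control and 0.14 in MSUS libraries. In the same order, slopes were -0.04 and 0.22 for Col4a3, 0.04 and 0.14 for Nid1, and 0.10 and 0.28 for Col4a1. With the spermatid level added, 7 of 28 members had a positive slope at that threshold.

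**Figure D3:**
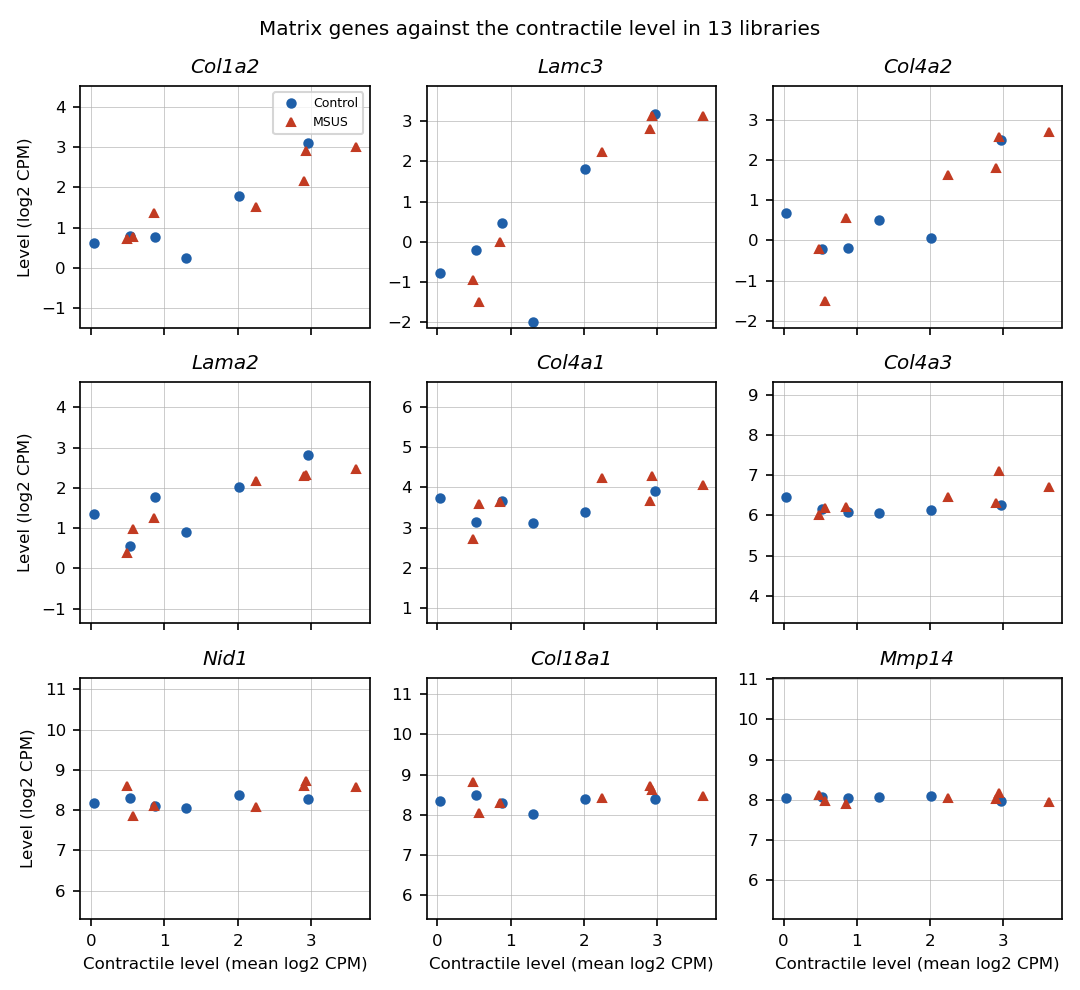
Level (log2 CPM, vertical axis, the same span in each panel) against contractile level (horizontal axis, mean log2 CPM of 4 genes) for 9 matrix genes in 6 Control (blue circles) and 7 MSUS (red triangles) libraries. Col1a2, Lamc3, Col4a2 and Lama2 climb with the contractile level, Col4a1, Col4a3 and Nid1 have shallower slopes (0.22, 0.13 and 0.11), and Col18a1 and Mmp14 lie nearly flat.

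The same fit with the endothelial marker level called 0 of 28 members at an adjusted p under 0.05, and 0% of all genes tested outside the markers (limma voom). Of the 10 endothelial markers 5 passed the filter, so this level includes genes near the floor, such as Tie1 with at most 6 counts. At an unadjusted p under 0.05, 0 of the 28 had a positive slope, against 1.16% of all genes tested outside the markers. A negative slope was found for 5 (Col4a2, Lama5, Lamb1, Col1a2 and Fn1), against 233 of all 14421 genes tested. The 3 tested contractile genes also had negative slopes at that threshold, from -4.85 to -2.24. Control 22 and MSUS 5, highest of their groups in contractile level, had the lowest endothelial levels of their groups (0.26 and 0.52). Whether these levels can be separated was not tested. edgeR gave 0 calls and 6 negative slopes at an unadjusted p under 0.05. Without the group in the model, limma voom gave 0 calls and 2 negative slopes. These counts of negative slopes have no share of all genes to compare.

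The 6 type IV collagen genes lie in 3 head-to-head pairs, the genes of each pair being read in opposite directions. In GENCODE vM21 on GRCm38, the start sites of Col4a3 (plus strand, base 82586921) and Col4a4 (minus strand, base 82586849) on chromosome 1 have 71 bases between them, and those of Col4a5 and Col4a6 on chromosome X have 1308 bases between them. The first exons of Col4a1 (start site at base 11312826, minus strand) and Col4a2 (base 11312805, plus strand) on chromosome 8 overlap by 22 bases, so a read there could be assigned to either gene where strand was not used. The RefSeq promoter windows of GRCm38.p6 (250 bases before to 50 after the start) are shown for the pairs whose windows hold both starts. The 71 bases between Col4a3 and Col4a4 lie before both genes, while Col4a1 and Col4a2 overlap and have no such stretch. In the Col4a4 window (chr1:82586800-82587099, minus strand, 300 bases) capitals mark the 71 bases between both start sites.
Col4a4: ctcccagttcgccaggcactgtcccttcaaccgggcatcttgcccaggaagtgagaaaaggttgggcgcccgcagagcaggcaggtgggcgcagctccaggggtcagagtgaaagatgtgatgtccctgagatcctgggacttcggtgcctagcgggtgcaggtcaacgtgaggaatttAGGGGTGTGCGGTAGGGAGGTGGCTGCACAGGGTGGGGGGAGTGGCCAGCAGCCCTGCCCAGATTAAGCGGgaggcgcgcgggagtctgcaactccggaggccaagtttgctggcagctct
In the Col4a1 window (chr8:11312777-11313076, minus strand) and the Col4a2 window (chr8:11312555-11312854, plus strand) capitals mark GC boxes (GGGCGG) and CCAAT boxes on either strand.
Col4a1: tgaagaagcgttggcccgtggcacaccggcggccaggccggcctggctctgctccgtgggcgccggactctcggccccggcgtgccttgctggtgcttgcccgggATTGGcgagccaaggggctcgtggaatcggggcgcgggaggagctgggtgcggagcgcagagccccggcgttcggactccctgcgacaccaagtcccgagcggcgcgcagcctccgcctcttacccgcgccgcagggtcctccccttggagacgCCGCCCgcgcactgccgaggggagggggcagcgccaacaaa
Col4a2: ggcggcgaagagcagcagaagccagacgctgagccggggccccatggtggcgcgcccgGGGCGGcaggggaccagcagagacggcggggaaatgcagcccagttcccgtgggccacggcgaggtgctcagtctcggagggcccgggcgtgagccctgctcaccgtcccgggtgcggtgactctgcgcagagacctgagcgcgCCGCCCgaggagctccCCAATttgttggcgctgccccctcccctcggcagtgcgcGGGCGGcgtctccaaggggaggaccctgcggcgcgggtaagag
The Col4a1 window holds 1 GC box and 1 CCAAT box, the Col4a2 window 3 and 1, and the Col4a4 window 0 of either. The GC box of Col4a1 and the last one of Col4a2 are the same site, where the first exons overlap. The GC box was in the window of 17 of the 24 members matched in RefSeq and in 35.7% of 32851 promoters, the CCAAT box in 11 of 24 and 37.4%, and the TATA box (TATAAA) in 1 of 24, Col3a1, and 13.6%. A member counted if any of its promoters held the box, while the percentages count each promoter, so the shares are not in like units. A match is a description of letters and not evidence of a bound factor.

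Levels of the pairs were compared across the 13 libraries. Col4a3 ranged from 6.06 to 6.45 log2 CPM in Control libraries (median 6.15) and from 6.01 to 7.11 in MSUS libraries (median 6.31), and Col4a4 from 6.64 to 6.94 (median 6.78) and from 6.47 to 7.59 (median 6.85). MSUS 26 was the highest and MSUS 1 the lowest library in both genes. Pearson's r was 0.968 (permutation p = 1e-05, the smallest that 100000 resamples can give, adjusted over 3 pairs 3e-05) and Spearman's rho was 0.923 (permutation p = 3e-05, adjusted 9e-05). Without MSUS 26 and MSUS 5, the libraries farthest from the median of Col4a3, r was 0.866 (permutation p = 0.00041). Within the groups r was 0.868 in Control (exact permutation p = 0.0111) and 0.989 in MSUS libraries (exact permutation p = 0.000198). Col4a4 was, of 14420 other genes tested, the gene with the highest r to Col4a3, followed by Kmt2d (0.950) and Fbrsl1 (0.946), over 13 libraries that share their preparation.

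The other pairs moved together less closely, and their counts were lower. Col4a2 had 2 to 74 counts per library, Col4a1 74 to 229, Col4a5 88 to 191 and Col4a6 57 to 115. Col4a3 had at least 660 and Col4a4 at least 980, so r does not compare the pairs on like terms. Whether counts or the distance between start sites play a part was not tested. For Col4a1 and Col4a2 r was 0.673 (permutation p = 0.0124, adjusted 0.0185) and rho 0.824 (permutation p = 0.00085, adjusted 0.00127). Leaving out MSUS 1 and MSUS 26 gave r of 0.609 (permutation p = 0.0458), and within Control and MSUS libraries r was 0.634 (exact permutation p = 0.138) and 0.662 (exact permutation p = 0.0909). Col4a2 ranked 326th by r to Col4a1, behind Zfp532 (0.887), Gm3055 (0.886) and Usp6nl (0.880). For Col4a5 and Col4a6 r was 0.385 (permutation p = 0.198) and rho 0.418 (permutation p = 0.157), and without MSUS 1 and MSUS 5 r was 0.419 (permutation p = 0.197). Within Control r was 0.341 (exact permutation p = 0.485) and within MSUS 0.474 (exact permutation p = 0.285). Col4a6 ranked 2269th by r to Col4a5, behind Gm16063 (0.881), Cd93 (0.864) and Ankrd23 (0.860).

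**Figure D4:**
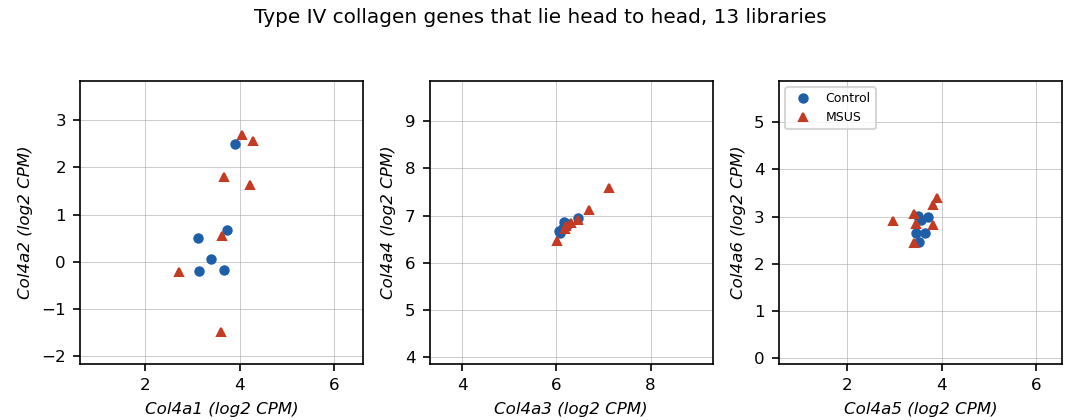
Level of the 2 genes of each head-to-head type IV collagen pair (log2 CPM on both axes, equal scales) in 6 Control (blue circles) and 7 MSUS (red triangles) libraries. The points of Col4a3 and Col4a4 fall on a narrow line, those of Col4a1 and Col4a2 rise steeply and loosely, and those of Col4a5 and Col4a6 form a cloud.

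No member differed between MSUS and Control Sertoli cells by the test used. At an unadjusted p under 0.05, 0 of the 31 tested members were called (limma voom), where 5.42% of all 14421 genes tested were, and at an adjusted p under 0.05 the share was 0% for members and for all genes. edgeR's quasi-likelihood test and DESeq2 also gave 0 members at an unadjusted p under 0.05. The direction was more often up: 25 of 31 members had a higher mean in MSUS, against 49.5% of all genes tested, and the median log2 fold change of the members was 0.16, against -0.00175 for all genes. The levels all come from the same 13 libraries, so their directions are not separate observations. With the contractile level in the model, 18 of the 28 members outside the contractile genes were higher with a median of 0.08, against 22 of 28 and 0.15 without it. Library sizes alone in place of scaled ones left 24 of 31 higher.

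By role, 5 of 6 type IV collagens, 7 of 9 laminins, 5 of 6 nidogens and proteoglycans, 3 of 3 interstitial genes and 3 of 3 contractile genes had a higher mean in MSUS, with none past p 0.05. The contractile genes had the largest median log2 fold change, 0.74, and the interstitial genes 0.55, while inhibitors (0.04) and proteases (0.06) stayed close to 0 with 1 of 2 genes higher in each. The smallest p belonged to the β laminins Lamb2 and Lamb1. Lamb3, the β3 chain, had a lower mean in MSUS (log2 fold change -0.33 ± 0.37, SE). Lamb2 ranged from 6.37 to 6.73 log2 CPM in Control and from 6.54 to 7.31 in MSUS libraries, with a log2 fold change of 0.19 ± 0.11 (SE, limma voom adjusted p = 0.878). All MSUS libraries lay above the control median of Lamb2. Lamb1, the β1 chain, ranged from -0.78 to 1.80 (median -0.11) and from -0.48 to 2.18 (median 0.95), with 0.91 ± 0.52 (adjusted p = 0.878) and 6 of 7 above the control median. The groups overlapped in both.

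The confidence intervals tell how far each gene could have moved. For Timp2 the log2 fold change was -0.06 (95% interval -0.19 to 0.07) and for Mmp14 -0.02 (-0.13 to 0.09), the narrowest intervals of the 31. For Nid1 it was 0.15 (-0.10 to 0.41), for Col18a1 0.16 (-0.06 to 0.38) and for Col4a3 0.23 (-0.06 to 0.53). The intervals were wide for the genes of the contractile slope: Lamc3 at 1.01 (-1.21 to 3.23), Col4a2 at 0.43 (-1.06 to 1.91) and Myh11 at 0.74 (-0.94 to 2.41). Acta2 ranged from 2.49 to 4.62 log2 CPM in Control (median 3.25) and from 2.83 to 5.05 in MSUS libraries (median 3.98), a fold change of 0.59 ± 0.37 on the log2 scale (adjusted p = 0.878).

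**Figure D5:**
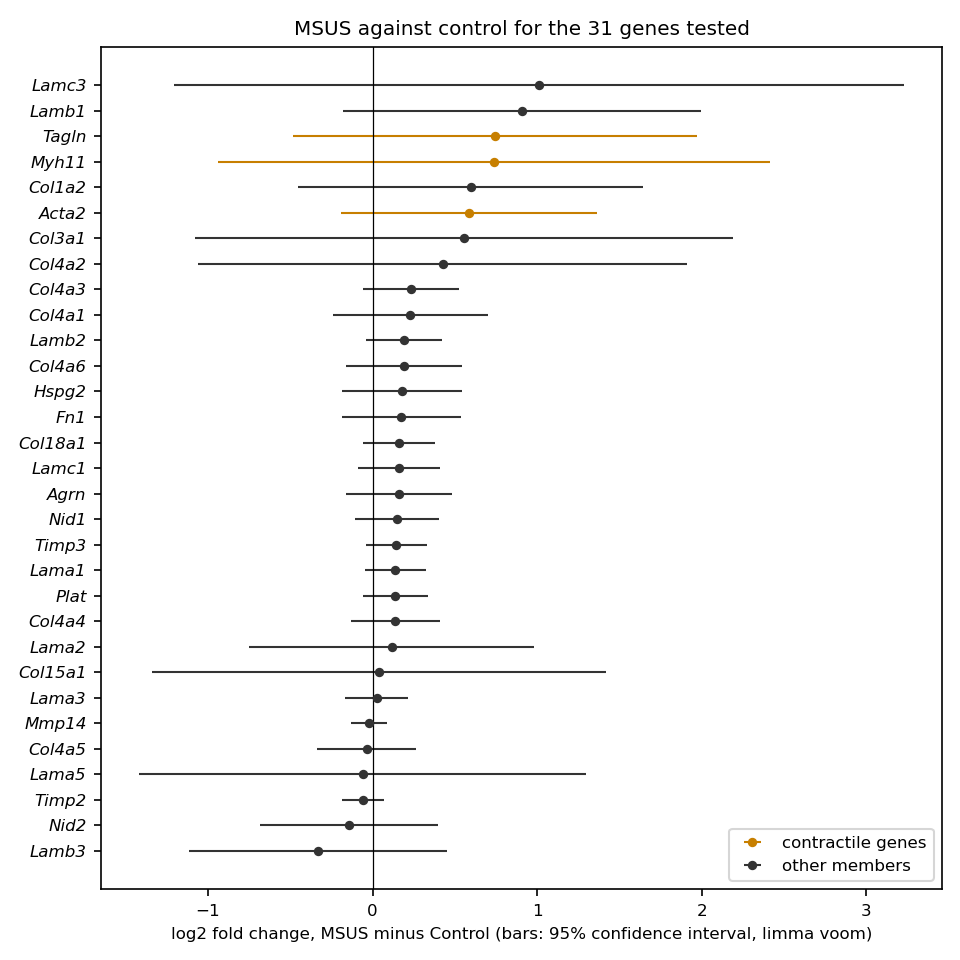
Log2 fold change, MSUS minus Control, for the 31 tested genes with 95% confidence intervals from limma voom (6 Control and 7 MSUS libraries, contractile genes in orange). All 31 intervals include 0, and those of Lamc3, Col3a1 and Myh11 are the widest while those of Timp2 and Mmp14 are the narrowest.

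The count of 0 at an unadjusted p under 0.05 depended on which libraries and covariates were used. It was 7 without MSUS 13 (7.15% of all genes tested in that fit), 3 without Control 22 (5.53%), 2 without MSUS 1 (5.42%), 2 without MSUS 11 (7.35%) and 1 without Control 10 (7.70%). With the elongated spermatid level as a covariate it was 7 (Acta2, Col4a3, Col4a4, Hspg2, Lamb2, Lamc1 and Timp3), where 8.36% of all genes tested were past the same threshold. With the endothelial level it was 7 (Acta2, Col1a2, Col4a2, Fn1, Lamb1, Myh11 and Tagln), where 6.41% of all genes were. At an adjusted p under 0.05 it was 0 in each of these.

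Of 108 other genes of matrix assembly, receptors, collagen processing and turnover, 68 were tested and 6 had an unadjusted p under 0.05, 2 with a higher and 4 with a lower mean in MSUS, where 5.42% of all genes tested passed that threshold. At an adjusted p under 0.05 there were 0 (limma voom, adjusted p = 0.878 for all 6). Col6a3, a chain of microfibrillar collagen VI, ranged from 1.72 to 2.45 log2 CPM in Control (median 1.93) and from 2.26 to 3.42 in MSUS libraries (median 2.54), with a log2 fold change of 0.80. Mia3, which loads collagen for export from the endoplasmic reticulum, had 0.13. Means were lower in MSUS for Mmp15, a membrane metalloprotease (-0.69), Plod2, a collagen lysyl hydroxylase (-0.18), cystatin C, Cst3 (-0.18), and Itgb1, the β1 integrin through which cells hold laminin (-0.13). Itgb1 ranged from 8.18 to 8.40 (median 8.32) in Control and from 8.06 to 8.27 (median 8.20) in MSUS libraries, with overlap. The number of such genes was 3 without MSUS 5 (3.74% of all genes tested in that fit) and 3 without Control 22 (5.53%).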

How the data were processed

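The 39 genes and the other gene lists were chosen with earlier results of these data known. The authors trimmed the reads of libraries made from 5 ng RNA (Trim Galore 0.6.5), assigned them to GENCODE vM23 transcripts with Salmon 1.1.0 and deposited estimated counts per gene without normalization. How transcripts were summed to genes is not given in the sources used here. Of 54281 features, 27170 had no gene name, held 20.7% to 26.7% of counts and were left out.

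Counts were rounded and scaled by TMM (edgeR 4.0.16, R 4.3.3). Genes entered by filterByExpr, and groups were compared by limma 3.58.1 with voom, as in the study's methods, with Benjamini-Hochberg adjustment. Levels were computed as log2 CPM, adding a prior count of 2. The named genes were all 39 members, other matrix genes at an unadjusted p under 0.05, the 5 non-members of smallest p in each direction of the contractile slope, and the 3 genes most like the first of each collagen pair. Fits were tested on simulated counts. Lengths and start sites came from GENCODE vM21 (GRCm38, the build of vM23) and promoters from RefSeq GRCm38.p6. Alternatives were edgeR's quasi-likelihood test, DESeq2 1.42.0, other scaling, filters, covariates and each library left out. Each library is 1 numbered mouse. Litters were not analysed here, so p-values measure spread between these mice, with the sort and library preparation of each included. Spread between libraries, more than counting error, limited precision for abundant genes.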

Additional observations from a re-analysis of the deposited data

Results flagged for a closer look

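In 6 Control and 7 MSUS libraries each gene was checked for a library far from the others of its group. Of 78 groups of values checked, 3 held one, and chance alone flags about 1 in 20 groups. Col4a2 in Control 22 stood at 2.49 log2 CPM, where the other Control libraries lay between -0.20 and 0.68. Lama3 in Control 22 stood at 4.55, where the others lay between 4.86 and 4.91. Nid2 in MSUS 1 stood at 1.17, where the others lay between 2.42 and 3.02. Control 22 was the Control library with the highest contractile level, 2.97, and its part in these values was not tested.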

How the results depend on the processing

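No paired analysis was possible because the replicate numbers are animal numbers and none is shared between the groups. The members past an unadjusted p of 0.05 between MSUS and Control numbered 0, 7 with the elongated spermatid level as a covariate, 7 with the endothelial level, and 0 to 7 when each library was left out in turn. None passed an adjusted p of 0.05 in any of these fits. For other matrix genes the count of 6 became 3 to 8 with a library left out. The 4 members called for the contractile slope became 0 with the spermatid level added and 0 to 5 with a library left out. With the other smooth muscle markers in place of the contractile genes, Col3a1 was called and Lama2 was not (limma voom adjusted p = 0.0705). Lama2 also lost its call without MSUS 1 (0.0809), MSUS 13 (0.0572) or Control 9 (0.0505). In fits chosen after seeing the data the calls became 0 without the 2 libraries farthest from the median, 0 in Control libraries alone and 0 in MSUS libraries alone. The cause was not tested, though fewer samples enter the last 3. For Col4a1 and Col4a2 r was 0.634 in Control and 0.662 in MSUS libraries alone, both no longer past the threshold, and 0.604 to 0.789 with a library left out. For Col4a5 and Col4a6 r was 0.186 to 0.602 with a library left out, the highest without MSUS 1, and for Col4a3 and Col4a4 0.917 to 0.982.

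Some log2 fold changes between MSUS and Control changed sign. With the contractile level as a covariate they were -0.0781 for Col4a2, -0.32 for Lama2, -0.19 for Lamc3 and -0.11 for Col1a2. With the spermatid level they were 0.0163 for Col4a5, -0.00432 for Lama3 and -0.20 for Col15a1, and with the endothelial level 0.0298 for Col4a5, -0.0335 for Lama3 and 0.45 for Lama5. DESeq2 gave 0.00157 for Col4a5, sample quality weights gave 0.0389 for Col4a5 and 0.15 for Lama5, and library size alone gave -0.00210 for Col15a1. With a library left out the ranges were -0.0983 to 0.0677 for Col4a5, -0.0345 to 0.0590 for Lama3, -0.54 to 0.38 for Lama5, -0.23 to 0.10 for Nid2, -0.0821 to 0.404 for Lama2 and -0.0630 to 0.574 for Col15a1. A prior count of 0.5 moved control levels by -1.12 to -0.000225 log2 CPM, and keeping features with no gene name shifted every level by about -0.38.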
